A study of Mus musculus with 24 samples.

Results

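The 10 genes described here are the mural cell identity genes Acta2, Tagln, Myh11, Kcnj8, Abcc9, Pdgfrb, Rgs5, Vtn, Notch3 and Atp13a5. They were taken by symbol from the 54235 features of the tables, without use of any measured value, and all 10 were found. Mural cells wrap the outside of blood vessels. Smooth muscle cells ring arteries and arterioles and contract through a cytoskeleton of smooth muscle actin and myosin, while pericytes lie along capillaries inside the basement membrane that they share with the endothelium. Both kinds of cell receive platelet-derived growth factor and Notch signals from endothelial cells, and pericytes carry an ATP-sensitive potassium channel that hyperpolarizes the cell when it opens.

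Single-cell RNA was measured in the primary motor cortex of Fos-CreER::Ai9 mice and in the dorsal striatum of Arc-CreER::Ai9 mice, so region and driver line cannot be told apart. In these mice a recombinase made on neuronal activity switches on the tdTomato reporter after 4-hydroxytamoxifen (4-OHT), and the mural cells studied here were not selected by that reporter. Early mice were trained on forelimb reaching for 2 days and late mice for 8 days before labelling, controls received 4-OHT without training, and tissue was taken 3 days after labelling. Each pool held 2 mice, 1 marked M and 1 marked F, each hemisphere gave its own library, and each region and stage had 2 pools, which makes 12 pools and 24 libraries. A pool is the replicate here. Counts were analysed for 23 libraries, so that dorsal striatum control 1 rests on 1 hemisphere.

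After filtering, 98612 cells remained, with 5260450 to 30470600 counted molecules (unique molecular identifiers, UMIs) per library. Each kit version draws on its own barcode list, and the rate of shared barcodes split the pools into 2 kit classes: class A held control 1 and late 1 of each region and class B the other 8 pools. The kit version of each library is not given in the sources used here, so the classes are inferred. Libraries shared a mean of 1.31 barcodes per 1e6 pairs within class A (0.789 to 1.75 over pairs of libraries), 0.261 within class B (0.036 to 0.565) and 0.024 between classes (0 to 0.437), so that single pairs within class B and between classes overlapped. Cells were clustered without the 10 genes, and clusters were named from other markers, so that the 10 genes did not define the classes directly. Genes that vary with the 10 were used for both steps, and doublet scoring did not leave the 10 out. The classes are therefore not independent of these genes. This gave 2561 pericyte-like, 2283 smooth muscle-like, 557 fibroblast-like and 3221 endothelial-like cells, while 780 of 9402 cells in vascular clusters stayed unnamed (48.5% in dorsal striatum late 1, 22.2% in motor cortex control 1 and 1.78% to 13.9% in the other pools). Of the 12 markers of each class, 11 had a UMI in at least 20% of the pericyte-like and of the smooth muscle-like cells, 12 in the endothelial-like and 9 in the fibroblast-like cells. In smooth muscle-like cells 8 of the 12 pericyte markers also reached 20%. Pericyte-like cells were few in 3 of the 4 class A pools: 8 in dorsal striatum late 1, which therefore gave no pericyte level, 32 in motor cortex control 1 and 44 in dorsal striatum control 1, against 189 to 382 in the others. The 32 cells of motor cortex control 1 also carried 4742 CPM (counts per 1e6 UMIs) of summed microglia markers, against 55.3 to 411 in the other pools, and 2768 CPM of endothelial markers, against 351 to 1232. Each mural class also held markers of the other. Summed smooth muscle markers stood at 19668 to 33308 CPM in smooth muscle-like and 2076 to 6570 in pericyte-like pools, and summed pericyte markers at 6064 to 10422 CPM in pericyte-like and 2760 to 3986 in smooth muscle-like pools.

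The levels are CPM of all UMIs of a class in a pool, and the kits read transcript 3′ ends. They compare a gene across classes and are not levels per length for ranking one gene against another. The 10 genes split into 3 patterns. Acta2, Tagln and Myh11 were highest in smooth muscle-like cells, at 43.9 to 51.0 times the mean level of the next class. Kcnj8, Abcc9 and Atp13a5 were highest in pericyte-like cells, at 18.5 to 45.7 times the next class. Rgs5 and Notch3 had nearly the same mean level in both mural classes, with ratios of 1.13 and 1.09, and Vtn and Pdgfrb were 3.16 and 3.66 times higher in pericyte-like cells than in the next class. All 10 genes had a higher level in at least 1 mural class than in the fibroblast-like and endothelial-like cells, and in microglia-like cells no mean over pools exceeded 8.02 CPM (the highest single pool had 30.3, of Rgs5) and no share of cells with a UMI exceeded 0.703%. The median depth was 1404 UMIs per cell in the pericyte-like class, 2075 in the smooth muscle-like, 1988 in the fibroblast-like, 1556 in the endothelial-like and 1820 in the microglia-like class.

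**Figure D1:**
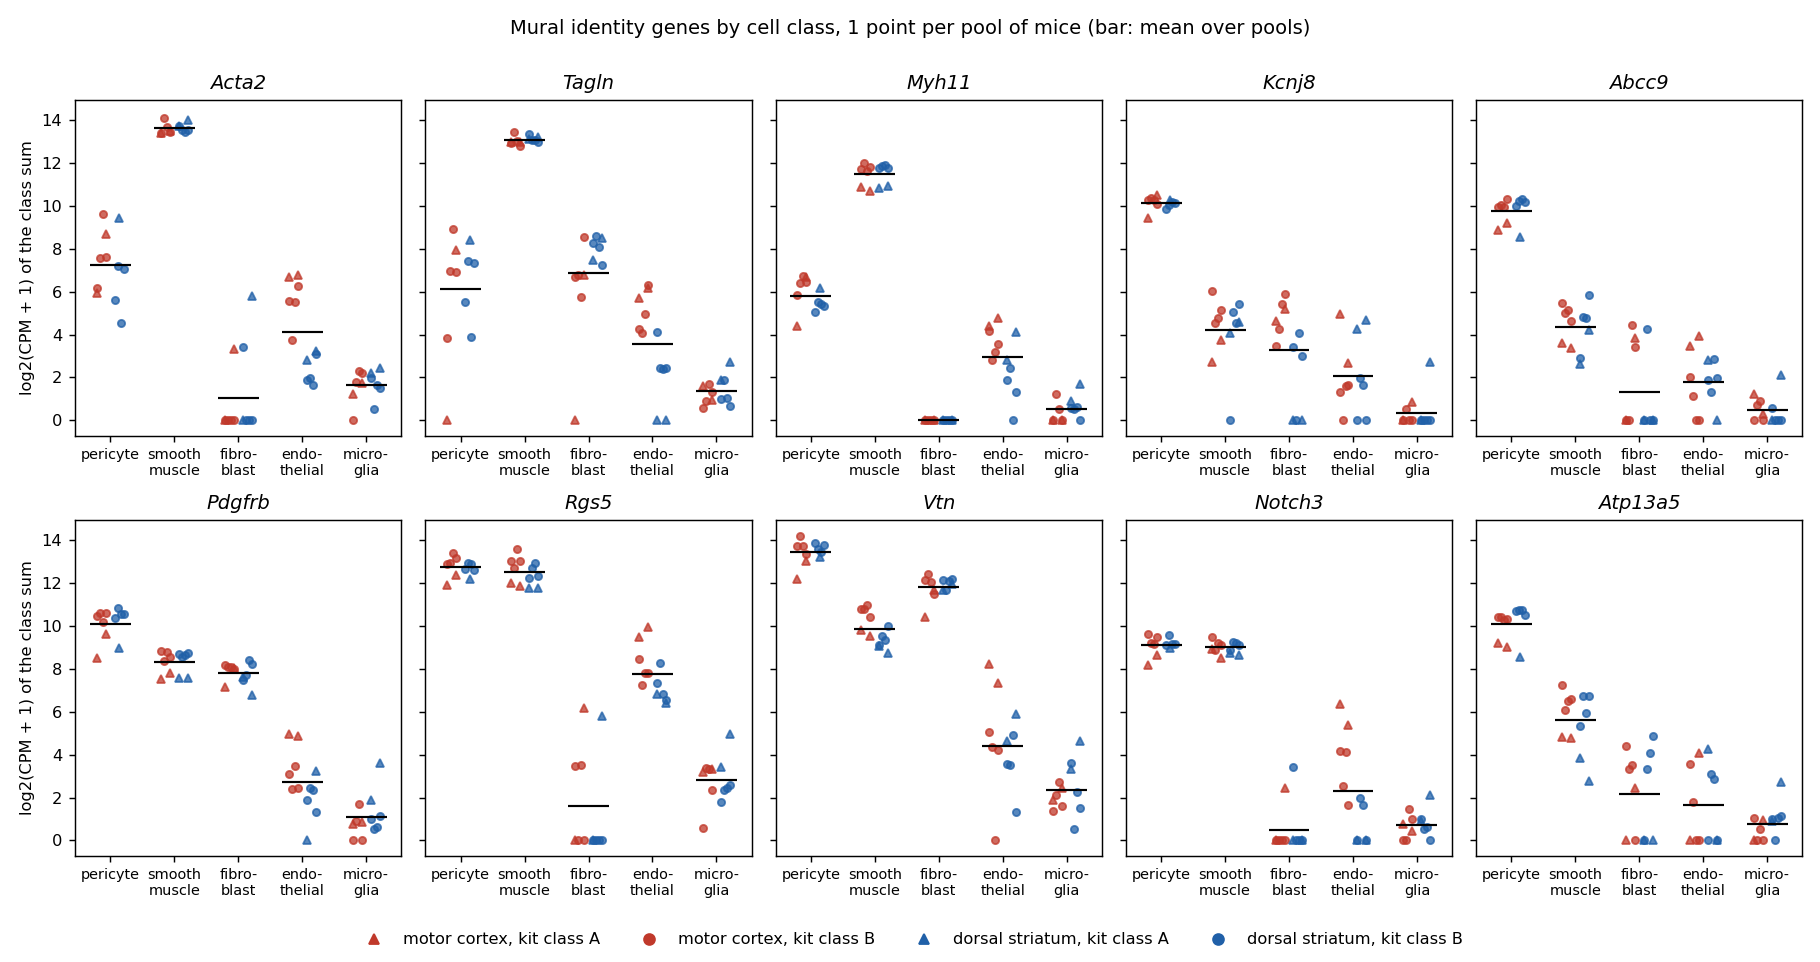
Each panel shows 1 gene, with log2(CPM + 1) of the class sum on the y axis and the 5 cell classes on the x axis. Points are pools, coloured by region and shaped by kit class, and bars are means over pools. Acta2, Tagln and Myh11 peak in smooth muscle-like cells, Kcnj8, Abcc9 and Atp13a5 in pericyte-like cells, and Rgs5 and Notch3 overlap between these classes.

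The 6 pairs of classes were compared for all 8630 genes tested with edgeR's quasi-likelihood test, with the pool as a block and Benjamini-Hochberg adjustment. Of 60 comparisons of the 10 genes, 54 passed an adjusted p of 0.05. Between pericyte-like and smooth muscle-like cells 8 of the 10 differed, 5 higher and 3 lower in pericyte-like cells, where 52% of all genes differed, 25.7% higher and 26.3% lower. In pericyte-like cells 10 of 10 were higher than in endothelial-like cells (with doublets kept, Tagln turned to the other sign), where 63.8% of all genes differed and 31.4% were higher. There, 9 were also higher than in fibroblast-like cells, where 42.4% of all genes differed and 21.8% were higher. In smooth muscle-like cells 10 of 10 were higher than in endothelial-like cells (66.3% of all genes differed, 33.3% were higher). Against fibroblast-like cells 8 were higher and 1 lower (54.1% differed, 29.2% higher and 24.9% lower). Fibroblast-like cells had 4 higher and 4 lower than endothelial-like cells (60.7% differed, 27.7% higher and 32.9% lower). The lower ones were Acta2, Myh11, Notch3 and Rgs5, with 6, 0, 2 and 21 UMIs in all fibroblast-like cells. These calls rest on values near the floor, of genes that are high in the mural classes of the same fit. Since 42.4% to 66.3% of all genes differed between classes, the counts alone do not set the 10 genes apart, and the sizes are given gene by gene. The classes were clustered from the same cells on genes that vary with the 10. Small p-values between classes were thus favoured in advance, here and below.

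The contractile genes come first. Acta2 encodes smooth muscle alpha-actin, Tagln the actin-binding protein transgelin and Myh11 smooth muscle myosin heavy chain. These genes are known targets of serum response factor, which binds CArG boxes of the form CC, an A/T-rich core and GG. The Acta2 promoter of RefSeq (GRCm38.p6), read from 250 bases before to 50 after the start of the gene, held a pair of such boxes with 1 C or G in the core. They are shown, with the box in capitals, because Acta2 had the largest fitted log2 difference between the mural classes among the 10 genes.
Acta2 chr19:34255438-34255467 (minus strand): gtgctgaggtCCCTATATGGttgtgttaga
Acta2 chr19:34255388-34255417 (minus strand): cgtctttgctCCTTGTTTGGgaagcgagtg
The first box lies from -84 to -75 and the second from -34 to -25 relative to the start in RefSeq. In the GENCODE annotation, where Acta2 runs from 34241090 to 34255590 on the minus strand of chromosome 19, both lie inside the gene. A box with at most 1 C or G in the core, on either strand, occurred in 9.98% of 32851 promoter windows of the same length, and 2 or more occurred in 0.822%. The match is a description of the letters and was not tested for binding.

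In smooth muscle-like cells Acta2 stood at 10740 CPM in the lowest pool, 11916 in the median and 17432 in the highest (mean 12818 ± 2182, SD, n = 12). In pericyte-like cells the pools ranged from 22.3 over 147 to 798 CPM (mean 252 ± 267, SD, n = 11). In endothelial-like cells they ranged from 2.09 over 10.5 to 111 CPM, and in fibroblast-like cells from 0 over 0 to 54.4. The lowest smooth muscle-like pool lay above the highest pool of every other class, while the pericyte-like pools spread widely and overlapped the endothelial-like and fibroblast-like ones. Acta2 was 82.1 times higher in smooth muscle-like than in pericyte-like cells (log2 difference -6.36 for pericyte-like minus smooth muscle-like, SE 0.30, adjusted p = 4.4e-28 by edgeR's quasi-likelihood test with Benjamini-Hochberg adjustment). With doublets kept, the difference of Acta2 between pericyte-like cells and the fibroblast-like (log2 1.73) or endothelial-like cells (0.42) did not pass. A UMI of Acta2 was found in 99.3% of smooth muscle-like, 5.82% of pericyte-like and 1.21% of endothelial-like cells. With every cell thinned to 1000 UMIs the shares were 98.9%, 4.37% and 0.807%.

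Tagln ranged from 7101 over 8428 to 11032 CPM in smooth muscle-like cells (mean 8755 ± 1117, SD, n = 12), and its log2 difference of pericyte-like minus smooth muscle-like cells was -6.24 (SE 0.32). It ranged from 0 over 123 to 478 CPM in pericyte-like cells and from 0 over 165 to 381 in fibroblast-like cells. These lower classes overlapped fully, and their difference did not pass the test (log2 -0.50 for pericyte-like minus fibroblast-like, SE 0.37, adjusted p = 0.29, edgeR). In fibroblast-like cells Tagln was the most often found of the contractile genes: 21.4% of them carried a UMI, against 4.65% of pericyte-like cells, or 11.8% against 3.87% at 1000 UMIs. Fibroblast-like cells exceeded endothelial-like cells by 2.79 on the log2 scale (SE 0.42, adjusted p = 4.5e-08, edgeR). Pericyte-like cells exceeded endothelial-like cells by 2.30 (SE 0.39), which turned to -0.32 with doublets kept and to -0.11 without the mixed and Gja4-led clusters.

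Myh11 ranged from 1639 over 3423 to 4111 CPM in smooth muscle-like cells and from 20.4 over 56.1 to 104 CPM in pericyte-like cells, a difference of -5.87 on the log2 scale (SE 0.20). In fibroblast-like cells it had 0 of 1267942 UMIs. A count of 0 allows up to 3 UMIs, or 2.37 CPM, so that Myh11 was at least 1343-fold higher in smooth muscle-like cells, with both classes taken over all pools and counting error alone considered. The smooth muscle-like pools also split by kit class, with 1639 to 1963 CPM in class A and 3225 to 4111 in class B.

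Kcnj8 and Abcc9 encode the Kir6.1 pore and the SUR2 regulatory subunit of the vascular ATP-sensitive potassium channel. Both lie on the minus strand of chromosome 6 (GRCm38), Kcnj8 at 142564837 to 142571614 and Abcc9 at 142587862 to 142702315, with 16247 bases between them. The stretches just before these annotated starts, read from the RefSeq promoter windows (GRCm38.p6), are shown because these neighbours had the most alike pattern of any pair of the 10 genes.
Kcnj8 chr6:142571615-142571764 (minus strand): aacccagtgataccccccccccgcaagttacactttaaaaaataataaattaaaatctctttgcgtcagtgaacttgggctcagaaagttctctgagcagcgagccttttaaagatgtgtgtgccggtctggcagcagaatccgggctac
Abcc9 chr6:142702316-142702424 (minus strand): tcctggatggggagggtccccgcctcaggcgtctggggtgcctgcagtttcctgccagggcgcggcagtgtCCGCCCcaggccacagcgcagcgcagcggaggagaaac
Capitals in the Abcc9 line mark a GC box. GGGCGG or its complement CCGCCC occurred in 35.7% of all promoter windows.

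Kcnj8 ranged from 692 over 1152 to 1446 CPM in pericyte-like cells (mean 1146 ± 206, SD, n = 11) and from 0 over 22.8 to 65.1 CPM in smooth muscle-like cells. No pool of the smooth muscle-like class came near the lowest pericyte-like pool. The difference was 5.33 on the log2 scale (SE 0.19, adjusted p = 1.1e-34 by edgeR's quasi-likelihood test), which is 40.3-fold. Smooth muscle-like and fibroblast-like cells, the next in the order, did not differ past the test (log2 0.52, SE 0.43, adjusted p = 0.31, edgeR). In fibroblast-like cells the motor cortex pools stood at 10.1 to 58 CPM and the striatal pools at 0 to 15.9, ranges that overlapped and rested on so few UMIs that the gene did not pass the filter for a test there.

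Abcc9 ranged from 375 over 1016 to 1277 CPM in pericyte-like cells and from 5.28 over 25.2 to 56.6 CPM in smooth muscle-like cells, a difference of 5.03 on the log2 scale (SE 0.17) or 32.6-fold. The 3 class A pools, at 375, 468 and 582 CPM, lay below all 8 class B pools, which began at 991. Kcnj8 showed no such split, with 692 to 1446 CPM in class A and 923 to 1343 in class B. Fibroblast-like and endothelial-like cells had means of 5.19 and 4.01 CPM of Abcc9 and did not differ past the test (log2 0.69, adjusted p = 0.43, edgeR).

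Pdgfrb encodes the receptor for platelet-derived growth factor B, through which endothelium recruits and keeps mural cells. It ranged from 366 over 1394 to 1843 CPM in pericyte-like cells, from 182 over 379 to 452 in smooth muscle-like cells and from 109 over 256 to 341 in fibroblast-like cells. The endothelial-like pools stood at 0 to 30.4 CPM, below every pool of the other 3 classes. Pericyte-like cells exceeded smooth muscle-like cells 3.03-fold (SE 0.13 on the log2 scale, adjusted p = 3.7e-17, edgeR's quasi-likelihood test). Smooth muscle-like cells exceeded fibroblast-like cells 1.62-fold (log2 0.69, SE 0.16, adjusted p = 1.6e-04, edgeR), although their pools overlapped, and this call was lost with DESeq2 (log2 0.57). At 1000 UMIs per cell, a UMI of Pdgfrb was found in 70.6% of pericyte-like, 27.7% of smooth muscle-like and 20.1% of fibroblast-like cells. In pericyte-like cells class A gave 366 to 782 CPM and class B 1155 to 1843.

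Notch3 encodes the Notch receptor of mural cells, which binds ligands on endothelial and mural neighbours. It ranged from 285 over 563 to 779 CPM in pericyte-like cells and from 362 over 521 to 723 in smooth muscle-like cells. The ranges nearly coincided, and the log2 difference was -0.09 (SE 0.15, interval of 2 SE -0.38 to 0.20, adjusted p = 0.64, edgeR). Endothelial-like pools stood at 0 to 81.2 CPM and fibroblast-like pools at 0 to 9.87 CPM, so that the mural classes stood above both without overlap. Pericyte-like pools of class A gave 285 to 500 CPM and those of class B 553 to 779.

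Rgs5 encodes a regulator that shortens G protein signalling. It ranged from 3846 over 7583 to 11013 CPM in pericyte-like cells and from 3477 over 5981 to 12297 in smooth muscle-like cells. The classes overlapped over most of their range, with a log2 difference of -0.07 (SE 0.20, interval of 2 SE -0.48 to 0.33, adjusted p = 0.79, edgeR). Endothelial-like cells had 83.5 to 993 CPM with a UMI in 6.02% of cells, and fibroblast-like cells had 0 to 71.8 CPM. Both classes split by kit, with 3846 to 5328 CPM in class A and 6310 to 11013 in class B in pericyte-like cells, and 3477 to 4122 and 4812 to 12297 in smooth muscle-like cells. Rgs5 was found in 99.1% of pericyte-like and 88.4% of smooth muscle-like cells.

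Vtn encodes vitronectin, a matrix glycoprotein that binds integrins. It ranged from 4660 over 12352 to 19088 CPM in pericyte-like cells, from 1363 over 4069 to 5438 in fibroblast-like cells and from 421 over 819 to 2001 in smooth muscle-like cells. Fibroblast-like cells came second, not the other mural class: smooth muscle-like cells were 3.28 times lower (log2 -1.72, SE 0.26, adjusted p = 5.0e-08, edgeR). Pericyte-like cells were 3.05 times higher than fibroblast-like cells (log2 1.61, SE 0.26) and 10.03 times higher than smooth muscle-like cells (log2 3.33, SE 0.27). Pericyte-like pools of class A gave 4660 to 9462 CPM and those of class B 10649 to 19088. Vtn was found in 99.3% of pericyte-like, 89.6% of fibroblast-like and 50.6% of smooth muscle-like cells.

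Atp13a5 encodes a P5-type transport ATPase known as a marker of brain pericytes. It ranged from 375 over 1376 to 1742 CPM in pericyte-like cells and from 5.84 over 63.9 to 152 in smooth muscle-like cells, without overlap (log2 3.93, SE 0.16, 15.2-fold). Class A pools gave 375 to 590 CPM and class B pools 1254 to 1742 in pericyte-like cells. Fibroblast-like and endothelial-like cells had means of 8.13 and 5.07 CPM and did not differ past the test (log2 0.78, adjusted p = 0.32, edgeR).

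Single cells were compared after thinning to 1000 UMIs. Of the pericyte-like cells, 75.2% carried Kcnj8 or Abcc9 and none of Acta2, Tagln and Myh11 (53.1% to 84.1% over pools), 5.51% carried both kinds of gene, 4.18% contractile genes alone and 15.1% neither. Of the smooth muscle-like cells, 96.3% carried contractile genes alone (93.3% to 99% over pools), 3.33% both kinds and 0.175% neither, which is 4 cells. Contractile genes alone were found in 11.8% of fibroblast-like cells, and neither kind in 98.3% of endothelial-like and 99.6% of microglia-like cells. Within the channel, 38.7% of pericyte-like cells carried both Kcnj8 and Abcc9, 22.9% Kcnj8 alone and 19.2% Abcc9 alone. At 1000 UMIs per cell few molecules of either gene are drawn, so alone means only that the other was not found. At least 3 of the 10 genes were found in 97.7% of pericyte-like cells.

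**Figure D2:**
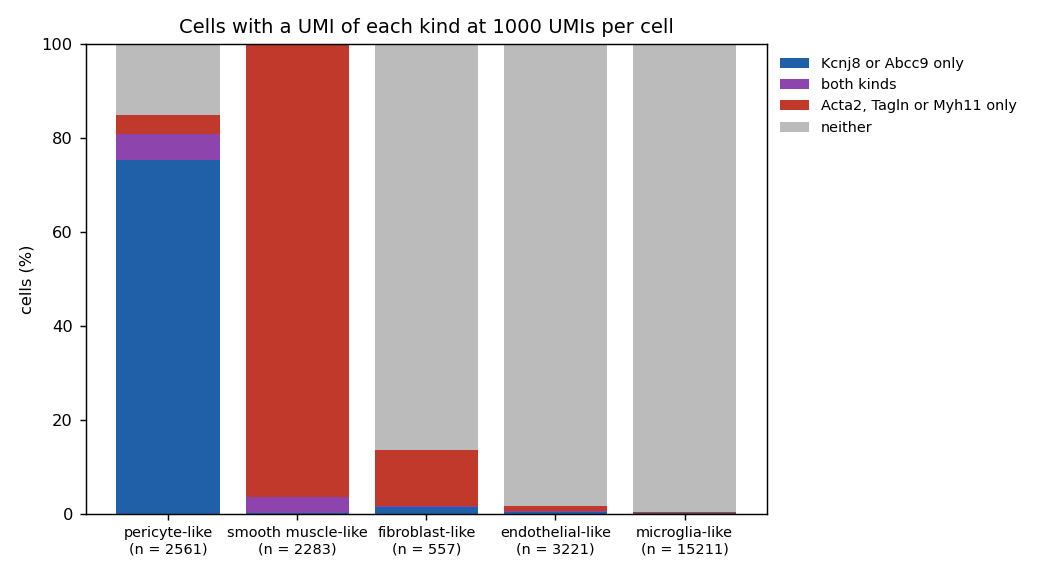
Stacked bars give, for each class on the x axis, the percent of cells (y axis, each cell thinned to 1000 UMIs) with a UMI of Kcnj8 or Abcc9 alone, of contractile genes alone, of both kinds or of neither. Pericyte-like cells are mostly of the first kind (75.2%) and smooth muscle-like cells nearly all of the second (96.3%).

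The classes were not uniform. Clusters are called here by 1 of their 10 leading genes by fold, picked after seeing the data and not always the first: Rgs5 and Vtn came before Gja4, and Acta2 and Tagln before Pln. The pericyte-like class held a main cluster in each kit class (411 cells in A, 1859 in B), a class B cluster led by Gja4 (251 cells) and a mixed class A cluster (40 cells). In the main clusters Acta2 stood at 58.8 and 36.8 CPM. In the Gja4-led cluster Acta2 stood at 1129 and Tagln at 834 CPM, with Kcnj8 at 550 and Abcc9 at 528, below the 1277 and 1209 CPM of the class B main cluster. Gja4 encodes a gap junction protein of arteriolar vessels. The Gja4-led cluster held 9.8% of pericyte-like cells but 57.7% of their Acta2 UMIs, 62.7% of their Tagln UMIs and 5.35% of their Kcnj8 UMIs, and the mixed cluster held 1.56% of the cells and 27.1% of the Acta2 UMIs. Without both clusters the log2 difference of Acta2 between pericyte-like and endothelial-like cells was 0.18, against 2.45 with them, and that of Tagln between pericyte-like and fibroblast-like cells was -2.84, against -0.50. Since the clusters left out are those with the most Acta2 and Tagln, these values are a description with no test. This split was made after seeing the data.

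Smooth muscle-like cells formed clusters led by Rgs5, by Crispld2 and by Pln in each kit class. Pln encodes phospholamban, which restrains the calcium pump of the sarcoplasmic reticulum. The Pln-led clusters had 16009 and 18159 CPM of Acta2 in kit classes A and B, with 1886 and 3402 of Rgs5 and 352 and 407 of Vtn. The Rgs5-led clusters had 8608 and 8230 CPM of Acta2, 9411 and 16451 of Rgs5 and 1904 and 2962 of Vtn. The Crispld2-led clusters had 11746 and 10671 CPM of Acta2, nearer to the Rgs5-led clusters, and 1983 and 4339 of Rgs5 and 211 and 727 of Vtn, nearer to the Pln-led ones. Pdgfrb followed Rgs5, at 348 and 671 CPM in the Rgs5-led and 143 and 246 CPM in the Pln-led clusters. Myh11 stood at 1003 and 2771 CPM in the Rgs5-led, 1993 and 4639 in the Pln-led and 2032 and 3260 in the Crispld2-led clusters. The Rgs5-led clusters held 29.2% of the smooth muscle-like cells, 63.2% of their Rgs5 UMIs, 68.7% of their Vtn UMIs, 65.2% of their Atp13a5 UMIs and 17.7% of their Acta2 UMIs. Without them the log2 difference of Rgs5, pericyte-like minus smooth muscle-like, was 0.81, a direction that leaving out the clusters richest in Rgs5 favours, so it is given with no test. Rgs5 was not used for clustering, but genes that vary with it were, so the cluster levels are given with no test.

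Endothelial-like cells had a cluster led by Gkn3, a gene of arterial endothelium, in each kit class (144 cells in A, 458 in B). Together these clusters held 18.7% of the cells and 94.2% of the Acta2, 89.9% of the Tagln and 77% of the Rgs5 UMIs of the class. Acta2 stood at 232 CPM in the cluster of class A and at 79.9 in that of class B.

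**Figure D3:**
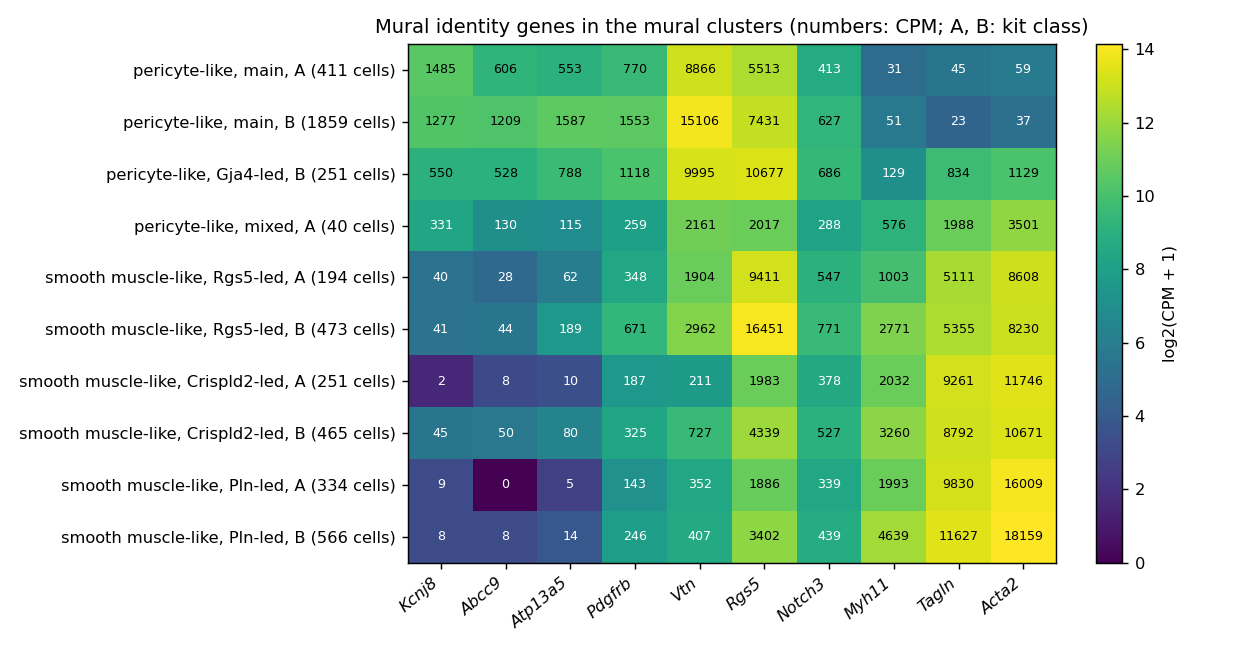
Rows are the mural clusters of each kit class (A, B), columns are the 10 genes, colour is log2(CPM + 1) and the printed numbers are CPM. The Gja4-led cluster combines Acta2 (1129 CPM) with Kcnj8 (550 CPM), and the Rgs5-led smooth muscle-like clusters have the highest Rgs5 of their kit class (9411 and 16451 CPM) and the lowest Acta2 of the smooth muscle-like clusters (8608 and 8230 CPM).

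The genes most like each of the 10 were ranked by Pearson correlation of log2(CPM + 1) over 31 sums of a region and a class, among 14112 genes. These sums share libraries, and the correlations are a description. The nearest were Cnn1 (0.956) and Map3k7cl (0.931) for Acta2, Myl9 (0.936) and Lmod1 (0.933) for Tagln, and Olfr558 (0.978) and Gpr20 (0.976) for Myh11. Cnn1, Map3k7cl, Myl9 and Lmod1 were among the smooth muscle markers used for naming. Pla1a (0.931) and Saa1 (0.926) were nearest to Kcnj8, Pde4c (0.941) and Gm4632 (0.933) to Abcc9, and Cox4i2 (0.935) and 5033404E19Rik (0.919) to Atp13a5. For Pdgfrb they were Sod3 (0.940) and Sh3d21 (0.910), for Notch3 Cox4i2 (0.958) and Ano1 (0.948), for Rgs5 Higd1b (0.945) and Cysltr2 (0.939), and for Vtn Foxd1 (0.967) and Bmp5 (0.956). Cox4i2 and Higd1b were pericyte markers used for naming. Among the 10 themselves Kcnj8 and Abcc9 were most alike (0.969), and Acta2 and Kcnj8 least (0.573).

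Other genes of the same pathways were read in the comparison of pericyte-like with smooth muscle-like cells, where the median log2 difference of all genes was 0.04 and 52% of all genes passed, 25.7% higher and 26.3% lower in pericyte-like cells. The counts of the lists below are to be read against these shares, and several lie near them. Of 15 further contractile genes, 14 were lower and 0 higher (median -2.03), among them the actin crosslinkers Actn1 (-3.41) and Flna (-3.10) and the tropomyosin Tpm1 (-3.08). Of 8 genes of potassium channels and membrane potential, 4 were lower, among them the large-conductance potassium channel Kcnma1 (-4.21) and the leak channel Kcnk3 (-2.04).

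Of 4 further genes of platelet-derived growth factor signalling, 2 were lower, the ligands Pdgfa (-2.23) and Pdgfd (-3.23), and 0 higher. Of 11 Notch genes, 4 were higher and 5 lower: the receptors Notch4 (2.29) and Notch1 (1.51) were higher and the ligand Jag1 (-1.04) lower, while the member Notch3 did not pass. Summed endothelial markers stood at 351 to 2768 CPM in pericyte-like and 11.7 to 125 in smooth muscle-like pools. Their part in the values of these lists was not tested. Of 10 regulators of G protein signalling and vasoactive receptors, 5 were higher and 1 lower, with Rgs3 (2.51), Rgs16 (1.74) and the guanylate cyclase subunit Gucy1b1 (0.77) higher. Of 11 partners of vitronectin and basement membrane genes, 5 were higher, such as the laminin chain Lama2 (2.22) and nidogen Nid1 (2.01), and 2 lower, such as the integrin Itgb1 (-0.85). Of 9 mural transcription factors, 1 was higher (Foxf2, 1.52) and 5 were lower, such as Epas1 (-0.83) and Prrx1 (-0.62). Of 3 P5 ATPases, Atp13a1 (0.61) was higher and 2 did not pass.

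The regions were compared with edgeR's quasi-likelihood test, with stage and kit class as covariates. Of 37 comparisons of the 10 genes, 3 passed, all lower in the dorsal striatum: Vtn in smooth muscle-like cells, where 0.704% of all genes differed and 0.48% were lower, and Acta2 and Tagln in endothelial-like cells, where 0.397% differed and 0.221% were lower. In endothelial-like cells only 4 of the 10 had enough UMIs for a test. All 4 had an unadjusted p of at most 0.05, as did 7.15% of all genes. Among them Acta2 and Tagln reached the test through the motor cortex pools, as described below. The count is therefore not to be read against that share. In pericyte-like cells 0 of 10 passed (1 at an unadjusted p of 0.05, as did 6.35% of all genes, and 0 by DESeq2), where 0.51% of all genes differed. The corresponding count was 0 of 3 in fibroblast-like cells (1 at an unadjusted p of 0.05, as did 15.3% of all genes, and 1 by DESeq2), where 3.42% of all genes passed. In both mural classes summed it was 0 of 10 (3 at an unadjusted p of 0.05, as did 8.51% of all genes, and 0 by DESeq2), where 0.501% passed.

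Vtn in smooth muscle-like cells stood at 888, 1762, 1783, 2001, 749 and 1387 CPM in the motor cortex pools and at 536, 560, 736, 654, 421 and 1037 CPM in the dorsal striatum pools, in the order control, early and late. The regions overlapped across kits and did not overlap within a kit: in class B 1387 to 2001 against 560 to 1037, and in class A 749 to 888 against 421 to 536. The dorsal striatum was 2.07 times lower (log2 -1.05, SE 0.15, adjusted p = 5.6e-04, edgeR). The labels give a batch for each library without saying of which step. Within the 2 labelled batches that held both regions, the values were 2001 against 654 and 1387 against 1037 CPM. It passed in 20 of 21 alternatives, and without the kit covariate the difference was -1.06 with an adjusted p of 0.154 (edgeR).

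By cluster, the regions stood apart in Vtn in 2 of the 3 smooth muscle-like clusters of class B. In the Pln-led cluster of class B the motor cortex pools stood at 511 to 626 CPM and the striatal pools at 135 to 458. In the Rgs5-led cluster of class B they stood at 2795 to 4305 and 1623 to 2488. In the Crispld2-led cluster they overlapped, at 653 to 1102 and 163 to 897. The Rgs5-led clusters, richest in Vtn, made up 26.6% to 46.2% of smooth muscle-like cells in motor cortex pools and 17.2% to 31.4% in striatal pools, and their part in the whole difference was not tested.

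In pericyte-like cells Vtn did not pass. The motor cortex pools ranged from 4660 to 19088 CPM and the striatal pools from 9462 to 15163, and the log2 difference was 0.05 (SE 0.25, interval of 2 SE -0.44 to 0.54, adjusted p = 0.995, edgeR). In a fit of both classes with the pool as a block, the regional difference of smooth muscle-like minus that of pericyte-like cells was -1.12 (SE 0.20, adjusted p = 0.0024, edgeR), in a comparison where 0.165% of all genes passed and 0.0508% were lower. Vtn was the 1 member of 10 that passed there. This comparison was chosen after seeing the data.

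**Figure D4:**
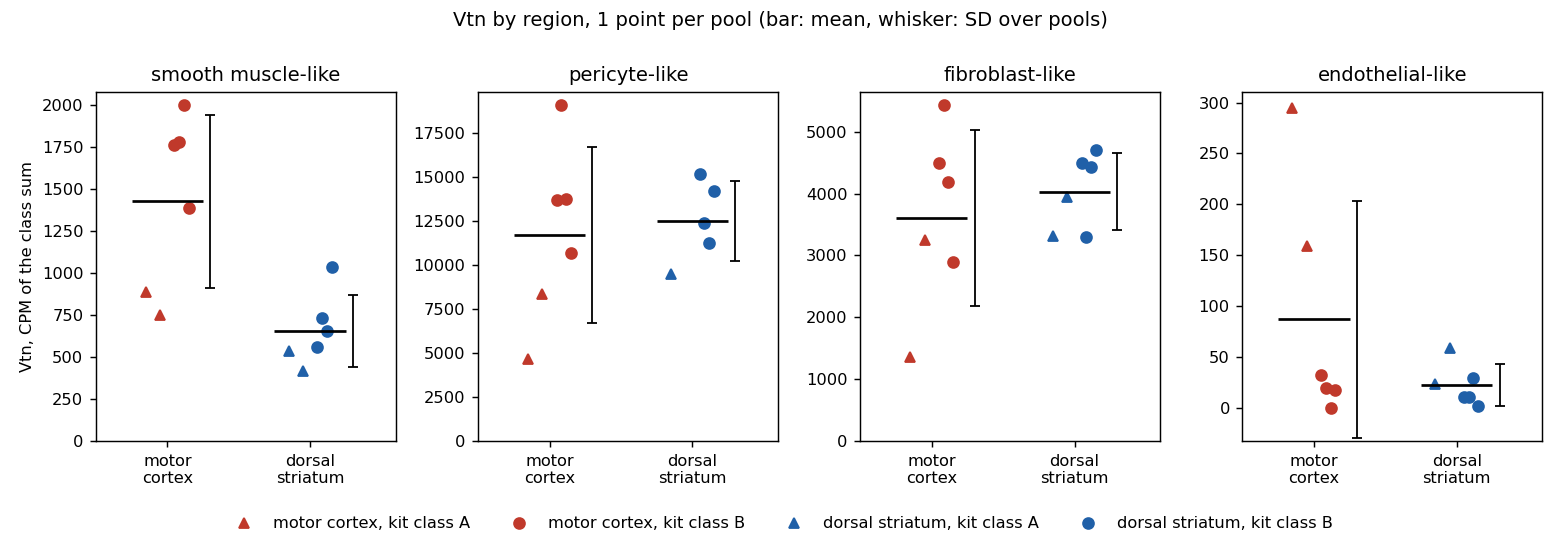
Vtn in CPM of the class sum (y axis) by region (x axis) in each class. Points are pools, shaped by kit class, with the mean (bar) and SD over pools (whisker). In smooth muscle-like cells the motor cortex pools lie at 749 to 2001 CPM and the striatal pools at 421 to 1037. In pericyte-like cells the regions overlap.

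Acta2 in endothelial-like cells stood at 12.6 to 111 CPM in motor cortex pools and at 2.09 to 8.35 in striatal pools, without overlap (log2 -3.38, SE 0.39, adjusted p = 1.5e-05, edgeR). Tagln stood at 15.6 to 78.6 CPM against 0 to 16.3 (log2 -2.61, SE 0.45, adjusted p = 0.0029, edgeR). The striatal cells held 11 UMIs of Acta2 and 14 of Tagln over all pools, against 180 and 134 in motor cortex. A UMI of Acta2 was found in 0.856% of striatal and 1.45% of motor cortex cells, and of Tagln in 1.01% and 1.29%. Both genes thus reached the test through the motor cortex pools, and the p-values do not show a difference across the whole class. Summed smooth muscle markers in the same class were 566 to 1582 CPM in motor cortex and 428 to 918 in dorsal striatum, and their part in the result was not tested. Both differences turned to the other sign when the cells removed for a high doublet score were kept, to 0.0047 for Acta2 and 0.34 for Tagln, and under a stricter cell filter, to 0.68 and 0.79. Tagln lost the call without dorsal striatum late 2 (adjusted p = 0.119, edgeR) and with class B pools alone (0.075).

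Training stage was compared within each region with kit class as covariate, in 27 comparisons. Of 195 tests of the 10 genes, 5 passed: Tagln 4 times and Acta2 once, all in the motor cortex and higher in the trained pools named. In smooth muscle-like cells, where these genes are highest, 0 of 60 tests passed (9, or 15% of them, at an unadjusted p of 0.05, against 5.85% of all genes, and 0 by DESeq2). On simulated counts of this class (motor cortex, late against control) 31% of 2-fold changes were recovered in genes drawn from all those tested. Over genes of all levels, a change of that size would thus mostly be missed. The share was not measured at the levels of the 10 genes. Of all genes in that class, 0%, 0.162% and 0.0162% passed in motor cortex (early minus control, late minus control, and late minus early), and 0.0498%, 0.0996% and 0.0332% in dorsal striatum. In the same order, endothelial-like cells had 0%, 0.0144% and 0% in motor cortex and 0.219%, 0.094% and 0.157% in dorsal striatum, with 0 of the members' tests passing. The summed mural cells had 0%, 0.0119% and 0%, and 0.0236%, 0.0354% and 0.0118%, again with 0 members. Striatal fibroblast-like cells had 0.0838%, 0% and 0.0419% with 0 members. At an unadjusted p of 0.05 (edgeR), 22.2% of 27 member tests passed in endothelial-like cells, against 5.18% of all genes. The shares were 20% of 30 against 2.65% in pericyte-like cells and 11.1% of 18 against 4% in fibroblast-like cells. In summed mural cells they were 3.33% of 60 against 4.54%.

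In motor cortex pericyte-like cells Tagln stood at 0 and 13.5 CPM in the control pools, at 123 and 478 in the early pools and at 246 and 119 in the late pools. All 4 trained pools lay above both controls. Early exceeded control by 4.76 on the log2 scale (SE 0.73, adjusted p = 0.0068, edgeR, where 0.0625% of all genes passed, all of them higher) and late exceeded control by 3.60 (SE 0.78, adjusted p = 0.048, edgeR, where 0.219% passed and 0.0468% were higher). The controls held 0 and 6 UMIs of Tagln, so that the fitted size depends on the prior count. Tagln thus reached the test through the trained pools, where it is high, and its p-values add no support to the pool values. Acta2 stood at 61.1 and 71.8 CPM in control, 190 and 798 in early and 407 and 194 in late pools. Early exceeded control by 3.02 (SE 0.59, adjusted p = 0.047, edgeR), and late did not pass (1.91, adjusted p = 0.73, edgeR).

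Several values moved with these differences. The control 1 pool held 32 pericyte-like cells and the microglia markers given above, and summed smooth muscle markers in motor cortex pericyte-like cells were 2076 and 4109 CPM in control, 3983 and 4394 in early and 5911 and 3280 in late pools. The Gja4-led cluster made up 28.4% of pericyte-like cells in early 2 and 10.2% to 17.6% in the other class B pools of motor cortex. In the class A pools the mixed cluster made up 46.9% of pericyte-like cells in control 1 and 4.09% in late 1. Without the Gja4-led and mixed clusters, Acta2 stood at 0 and 25.4 CPM in control, 50.1 and 112 in early and 32.2 and 83.9 in late pools, and Tagln at 0 and 15.2 in control, 15.7 and 91.6 in early and 34.5 and 30.9 in late pools. Then 17 cells remained in control 1, too few for a fit. The part of these values in the result was not tested.

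Within a labelled batch, Tagln stood at 0 CPM in control 1 and 246 in late 1, and, in another batch, at 13.5 in control 2 and 123 in early 1. All 5 calls, those in fibroblast-like cells included, were lost without the kit covariate. The differences were then 4.69 (Tagln, early), 2.87 (Acta2, early) and 4.14 (Tagln, late) in pericyte-like cells. In fibroblast-like cells they were 1.85 and 1.502 (Tagln, late against control and against early), against 2.20 and 2.30 with the covariate. With RLE factors Acta2 had an adjusted p of 0.078 and Tagln, late against control, 0.054 (edgeR), and the latter had 0.053 with DESeq2. Without motor cortex early 2 the Acta2 difference was 1.68 with an adjusted p of 0.9997 (edgeR), and without motor cortex control 1 the Tagln difference of early and control was 4.45 (adjusted p = 2.78e-11, edgeR). Without motor cortex control 2 it was 10.9 and that of late and control 9.62, and the control left then had 0 UMIs. Without motor cortex late 2 the latter was 9.80. In dorsal striatum pericyte-like cells, which could not be fitted because late 1 held 8 cells, Acta2 stood at 696 and 47.9 CPM in control, 147 and 22.3 in early and 132 in late 2, and Tagln at 339 and 44.7, 172 and 13.9, and 162. There control 1 was the highest pool and early 2 the lowest for both genes.

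In motor cortex fibroblast-like cells Tagln stood at 0 and 101 CPM in control, 109 and 52.6 in early and 108 and 377 in late pools. Late exceeded control by 2.20 (SE 0.55, adjusted p = 0.022, edgeR, where 0.292% of all genes passed and 0.209% were higher) and early by 2.30 (SE 0.50, adjusted p = 0.0030, edgeR, where 0.209% passed and 0.125% were higher). The late 1 pool lay beside the higher control and early pools, and 377 CPM in late 2 stood alone. Late against control passed in 4 of 12 alternatives and late against early in 6 of 12. Without motor cortex late 2 the differences were 6.67 and 6.93 with adjusted p of 0.74 and 0.80 (edgeR), without control 1 they were 1.92 and 2.20 with 0.96 and 0.99, and neither passed with DESeq2. Late against control was also lost without control 2 (6.68) and without late 1 (1.94), and late against early without early 2 (1.90).

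**Figure D5:**
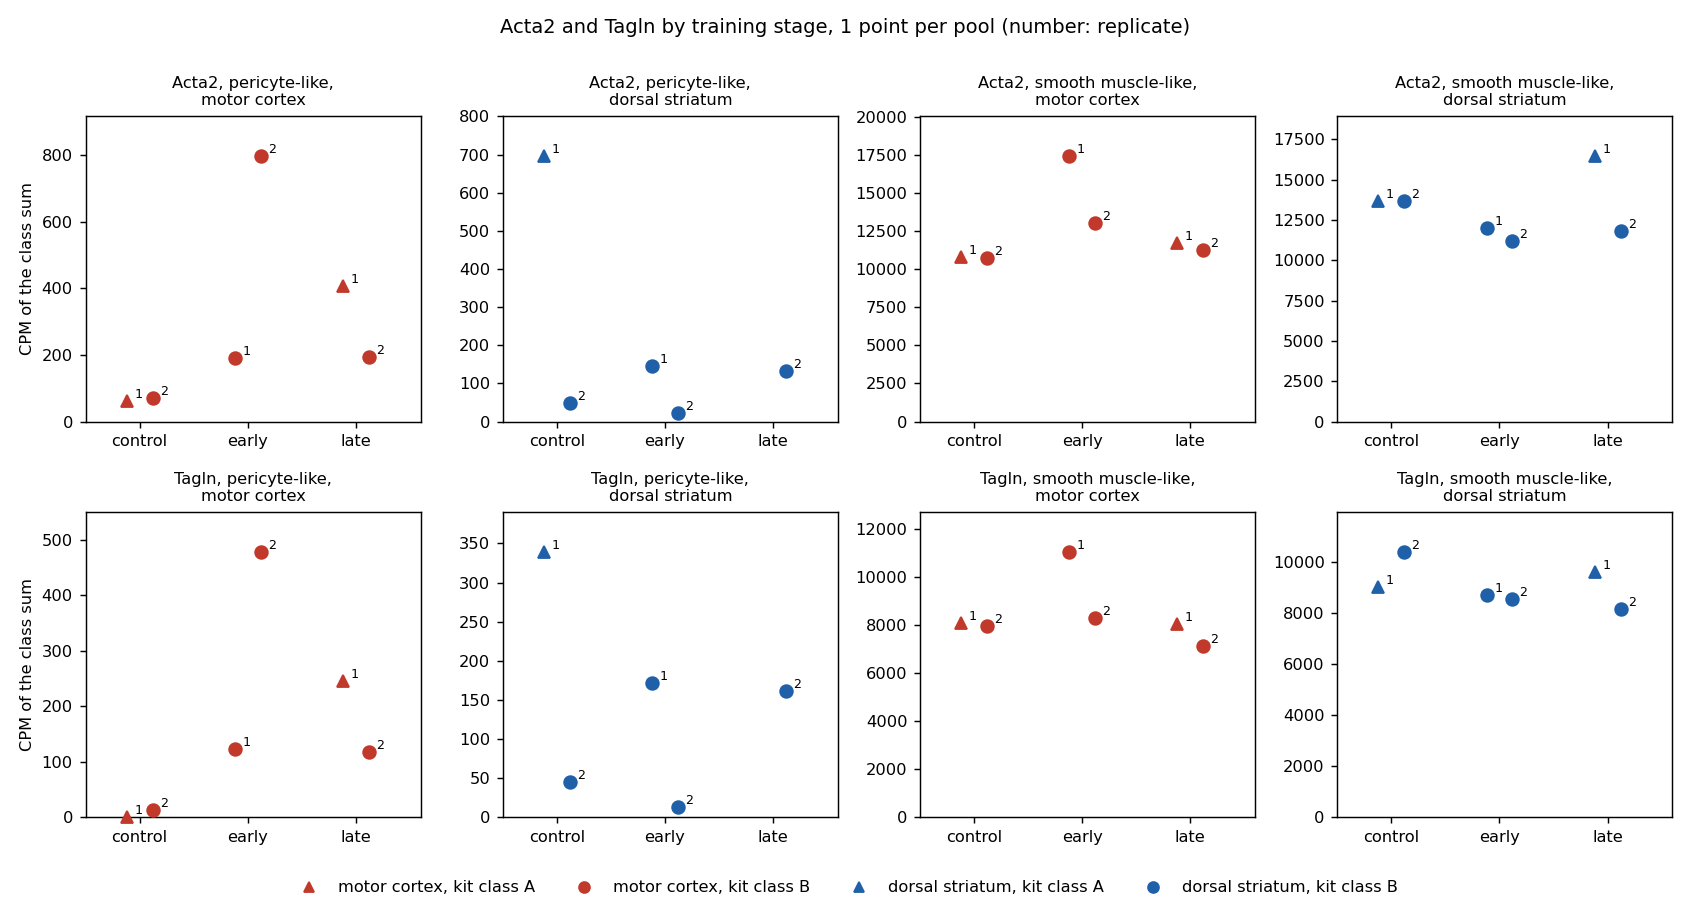
Acta2 and Tagln in CPM of the class sum (y axis) by training stage (x axis), in panels by class and region. Points are pools numbered by replicate. In motor cortex pericyte-like cells the trained pools lie above the controls for Tagln (119 to 478 against 0 and 13.5 CPM), and in dorsal striatum a control pool is the highest (339 CPM).

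In each region, the hemispheres of trained pools were set against each other, contralateral against ipsilateral, with the pool as a block. Of 64 tests of the 10 genes 0 passed with edgeR's quasi-likelihood test, 8, or 12.5%, had an unadjusted p of at most 0.05, against 4.12% of all genes, and 0 passed with DESeq2. Of all genes, 0.0217% passed in pericyte-like, 0.0201% in smooth muscle-like, 0.0199% in endothelial-like and 0.0145% in summed mural cells of motor cortex, and 0%, 0.0214%, 0.113% and 0% in those of dorsal striatum. Fibroblast-like cells were too few per library for this comparison.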

How the data were processed

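Raw UMI counts per gene and cell barcode were deposited by the authors, made with Cell Ranger 3.1.0 on GRCm38 (mm10) per the submitters' processing notes; the file headers give software version 3.0.2. From these, barcodes under 500 genes or 1000 UMIs, or over 20% mitochondrial UMIs, were dropped. The 5103 cells with the highest doublet scores of their library (Scrublet in scanpy 1.11.5) were removed as doublets. Their number was set in advance, as 0.8% of passing cells per 1000 barcodes of the library, and not by a score threshold. Cells were clustered (leidenalg 0.10.2) without the 10 genes, first per region and then for vascular cells per kit class, and named from markers. Doublet removal and naming can shift low levels. UMIs were summed per pool and class with at least 20 cells for a test and 10 for a level. The files' counts were tested with edgeR 4.0.16 by the quasi-likelihood test after filterByExpr and TMM scaling, with Benjamini-Hochberg adjusted p called at 0.05, over all genes. On simulated counts, 80% of 2-fold changes were recovered between pericyte-like and smooth muscle-like cells and 85% between regions in smooth muscle-like cells. By stage in motor cortex, 31% were recovered in smooth muscle-like cells (late against control) and 6% in pericyte-like cells (early against control). For 4-fold changes the shares were 99%, 98%, 69% and 63%, and 2.82% to 7.41% of the calls were false. Alternatives were RLE factors, no filter, DESeq2 1.42.0, no kit covariate, other cell filters and clusterings, and each pool left out.

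The 10 genes and the lists were chosen with earlier results of these data known. The text names the 10 genes in every comparison, at most 3 genes per list with the smallest adjusted p, and the 2 genes most correlated with each; 1 list gene is not reported here. Replicate numbers follow record order and pair nothing. Pools hold different mice per the labels, so p-values of the stage and region tests measure the spread between pools. Where the pool is a block, as between classes and hemispheres, they measure how differences within a pool vary from pool to pool. Per library 467 to 6606 cells were kept, with medians of 2048 to 5725 UMIs. Motifs were searched on both strands of RefSeq windows, matched for 7 of the 10 genes by symbol. Intervals are 2 SE of the edgeR fit over pools, and the floor for a count of 0 covers counting error only.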

Additional observations from a re-analysis of the deposited data

Results flagged for a closer look

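In 45 sets of 5 or 6 pools of a region with a mean of at least 50 CPM, 9 held a pool set far from the others by Dixon's gap. The rate of about 1 in 20 for this rule holds for independent pools of 1 kind. These sets mix stages and kit classes and share pools, so the count was not compared with chance. In dorsal striatum control 1, pericyte-like cells (44 cells, the only kit class A pool of these sets) had 375 CPM of Abcc9 against 1016 in the next pool, 375 CPM of Atp13a5 against 1468 and 696 CPM of Acta2 against 147. In motor cortex, too, Abcc9 and Atp13a5 were lower in the class A than in the class B pools of pericyte-like cells. Motor cortex early 1 had the highest smooth muscle-like Acta2, at 17432 CPM against 13049 in the next pool, and Tagln, at 11032 against 8277. Dorsal striatum early 1 had 754 CPM of Notch3 in pericyte-like cells against 570 and 313 CPM of Rgs5 in endothelial-like cells against 160. In fibroblast-like cells motor cortex control 1 had 141 CPM of Pdgfrb against 251 in the next pool, and motor cortex late 2 had 377 CPM of Tagln against 109. In a comparison chosen after seeing the data, the regional log2 difference of Vtn in smooth muscle-like minus that in pericyte-like cells was -1.12.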

How the results depend on the processing

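Each of the 10 genes kept its class of highest mean level under all 5 alternatives tried for the levels. Over these and the settings that leave out clusters, 19 single levels moved by more than 1 SD over pools: 8 with the stricter cell filter, 7 with doublets kept, 3 without the Rgs5-led clusters and 1 with the microglia-like level subtracted. Of 60 class comparisons, 54 passed, against 49 to 55 under the alternatives, 53 to 54 without one pool and 54 without the replicate block of pools. Of the stage tests 5 passed, against 3 with RLE factors, 2 with DESeq2, 0 without the kit covariate, 2 with the 10 genes used in clustering, 4 without the filter on low counts, 7 with doublets kept or without the Rgs5-led clusters, and 3 to 7 without one pool. Motor cortex pericyte-like cells could not be fitted by stage with doublets kept or with the 10 genes used in clustering, so that their 3 calls have no value there, and the stricter cell filter left no stage fit of these cells either. Of the region tests 3 passed, against 9 without the filter on low counts, 1 with the stricter cell filter and 3 to 6 without one pool. For hemispheres 0 passed, and 0 to 6 without one pool, the 6 without motor cortex early 2. The hemisphere fit has pool as its block, and without the replicate block 0 passed.

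Single results were followed for all class comparisons and for the stage and region results called in the main fit. Under all alternatives, 1487 kept their direction and side of the threshold, 38 lost the call, 6 gained one and 24 changed sign. Uncalled stage and region tests and all hemisphere tests were left out, so they could not count as gained. The counts thus describe mainly class comparisons. Rgs5 between pericyte-like and smooth muscle-like cells became 0.022 with RLE factors, 0.075 with DESeq2, 0.12 with doublets kept, 0.48 with the stricter filter, 0.000647 with no replicate block, 0.033 in striatum alone, 0.014 without the mixed cluster and 0.81 without the Rgs5-led clusters. Notch3 there became 0.0030 with DESeq2, 0.020 with doublets kept, 0.27 with the stricter filter and 0.11 without the Rgs5-led clusters. Tagln of pericyte-like minus fibroblast-like cells became 0.36 in motor cortex alone. Tagln of pericyte-like minus endothelial-like cells became -0.32 with doublets kept and -0.11 without the mixed and Gja4-led clusters. Kcnj8 of smooth muscle-like minus fibroblast-like cells became -0.077 in motor cortex alone. Of fibroblast-like minus endothelial-like differences, Abcc9 became -0.73 with the stricter filter and -0.020 in striatum alone, and there Notch3 became 0.29 and Acta2 0.33. The regional differences in endothelial-like cells became 0.34 and 0.79 for Tagln and 0.0047 and 0.68 for Acta2 with doublets kept and with the stricter filter. The cause was not tested. Precision is limited by 2 pools per group and, in pericyte-like cells of kit class A, by few cells.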

Other observations

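Outside the vascular classes, some of the 10 genes had levels above 100 CPM, given as values with no test. Ependymal-like cells of the dorsal striatum (956 cells), which line the ventricle and carry motile cilia, had 347 CPM of Acta2 and 132 CPM of Tagln. Astrocyte-like cells had 111 CPM of Pdgfrb in the dorsal striatum and 117 in the motor cortex. Cells led by red blood cell markers in the motor cortex (154 cells) had 126 CPM of Rgs5.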
